A study of Mus musculus with 40 samples.

Results

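Mouse embryonic stem cells with an intact GLP gene were compared by RNA-seq with cells homozygous for GLP 3A, and 7 genes that stood lower in the mutant are described here: Fxyd6, Adam23, Il3ra, Hebp1, Cmah, Nlrp1a and Pqlc1. They are 7 of the 23228 gene symbols listed in every library, and they were chosen by their RPKM (a read number scaled to gene length and sequencing depth), which was lower in GLP 3A than in wild type either without retinoic acid or in both states. The genotype differences below therefore describe the choice and carry no test. The rule sets no threshold, so no gene lies just outside it. The working name of the group, genes lost in GLP 3A, goes further than the values: no member was at 0 in any library, Cmah kept 50.1% of its wild-type level, and Pqlc1 was higher in the mutant after retinoic acid.

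The 4 groups were untreated wild type, untreated homozygous GLP 3A, wild type given all-trans retinoic acid (RA) at 1 uM and homozygous GLP 3A given the same dose, each with 2 libraries. All cells had a C57BL/6 (mixed) background, had grown on feeders in serum medium with LIF, and spent 2 passages without feeders in 2i medium, which contains inhibitors that hold stem cells in an undifferentiated state. LIF, a self-renewal factor, was taken away when RA was added, so RA and LIF removal cannot be told apart. The labels give neither the length of RA treatment nor the number of independent lines or clones per genotype. They also do not say that the replicates were separate cultures, so p-values measure the spread between these libraries only. The series holds 40 samples, and its 32 chromatin and input samples are not analysed here.

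GLP, the product of Ehmt1, pairs with G9a to place mono- and dimethyl marks on lysine 9 of histone H3, marks found in silent chromatin. GLP also binds the marks it makes through its ankyrin repeats, and in the published work on this mutant the 3A substitutions are in that binding site; the labels do not spell this out. Genes that lie lower in such a mutant are on the side opposite to the release of repressed genes. The members belong to no single pathway. Fxyd6, Adam23, Il3ra and Pqlc1 encode membrane proteins, and Hebp1, Cmah and Nlrp1a encode proteins of the cell interior.

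Promoters of 6 of the 7 members were matched in RefSeq's table (GRCm38.p6; from 250 bases before to 50 after a gene's start), and 4 of them are shown because they span the range from the most to the fewest CpG dinucleotides, the sites of DNA methylation. Capitals mark CpG. Each is written 5′ to 3′ on the strand of its gene, as the table gives it.

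Il3ra, chr14:14346245-14346544, plus strand: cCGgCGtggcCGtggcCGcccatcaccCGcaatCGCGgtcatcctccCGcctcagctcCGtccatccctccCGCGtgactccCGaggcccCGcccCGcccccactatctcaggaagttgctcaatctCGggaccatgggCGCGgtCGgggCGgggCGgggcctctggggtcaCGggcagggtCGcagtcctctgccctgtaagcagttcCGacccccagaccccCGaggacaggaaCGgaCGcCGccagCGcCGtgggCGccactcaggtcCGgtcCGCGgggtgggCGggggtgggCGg

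Adam23, chr1:63445641-63445940, plus strand: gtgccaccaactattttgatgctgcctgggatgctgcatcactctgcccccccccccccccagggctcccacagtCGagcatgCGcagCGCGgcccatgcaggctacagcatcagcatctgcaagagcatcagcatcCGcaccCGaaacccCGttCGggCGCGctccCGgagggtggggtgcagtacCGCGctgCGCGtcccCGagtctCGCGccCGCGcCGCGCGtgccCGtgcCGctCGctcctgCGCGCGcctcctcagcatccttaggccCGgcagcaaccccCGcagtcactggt

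Cmah, chr13:24327154-24327453, plus strand: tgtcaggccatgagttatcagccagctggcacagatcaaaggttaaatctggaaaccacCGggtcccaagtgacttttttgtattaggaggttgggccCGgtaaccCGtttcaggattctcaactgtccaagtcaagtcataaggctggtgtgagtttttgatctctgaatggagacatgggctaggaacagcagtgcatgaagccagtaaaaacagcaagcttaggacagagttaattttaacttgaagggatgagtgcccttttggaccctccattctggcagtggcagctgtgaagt

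Nlrp1a, chr11:71144655-71144954, minus strand: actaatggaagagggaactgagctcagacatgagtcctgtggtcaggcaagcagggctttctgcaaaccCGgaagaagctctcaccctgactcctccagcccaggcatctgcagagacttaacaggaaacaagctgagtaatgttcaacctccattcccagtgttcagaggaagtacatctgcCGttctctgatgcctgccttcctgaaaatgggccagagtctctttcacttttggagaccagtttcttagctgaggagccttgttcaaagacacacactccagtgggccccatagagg

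Il3ra had 35 CpG in this window with 74.3% G and C, and Adam23 had 31 with 70% G and C. The median over the 32851 windows of the table was 7 CpG with 52.7% G and C, and 93% of windows had fewer CpG than Il3ra's. Hebp1 followed with 17 CpG and Fxyd6 with 12. Both Cmah windows had 3 and the Nlrp1a window had 2, and 14.1% of all windows had fewer than Nlrp1a's. In all, 5 motifs were searched on both strands. The GC box GGGCGG was in the windows of Il3ra (7 matches) and Hebp1 (2 matches), against 35.7% of all windows. CCAAT was in those of Fxyd6, Hebp1 and the second Cmah start (1 match each), against 37.4%. The E-box CACGTG was in Hebp1's window alone (1 match), against 7.15%, and the octamer ATGCAAAT (1.74% of all windows) and the TATA box TATAAA (13.6%) were in none. The members thus had CpG-rich and CpG-poor starts alike. The matches are letters in a window and say nothing of a factor's binding.

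Levels are given in RPKM as deposited, and coordinates are those of the files (mm9). Log2 differences are on log2(RPKM + 1), a scale that understates the change of low genes, each with the standard error (SE) of the fit over all 8 libraries. Untreated libraries of the 2 genotypes did not overlap for any of the 7 members, and both mutant libraries lay below both wild-type ones for 27.7% of all genes tested. For background, 4.15% of the 13198 genes tested were called lower in untreated GLP 3A (limma, adjusted p under 0.05), and 5.31% with RA. Of the members, 6 stood lower by 2-fold or more without RA and 5 with RA, where 0.644% and 0.818% of genes were called lower by that much. Nothing is read from these counts, since the contrasts chose the members. In bulk RNA, fewer cells with a transcript and less of it per cell cannot be told apart. No other listed gene overlapped the locus of any member.

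**Figure D1:**
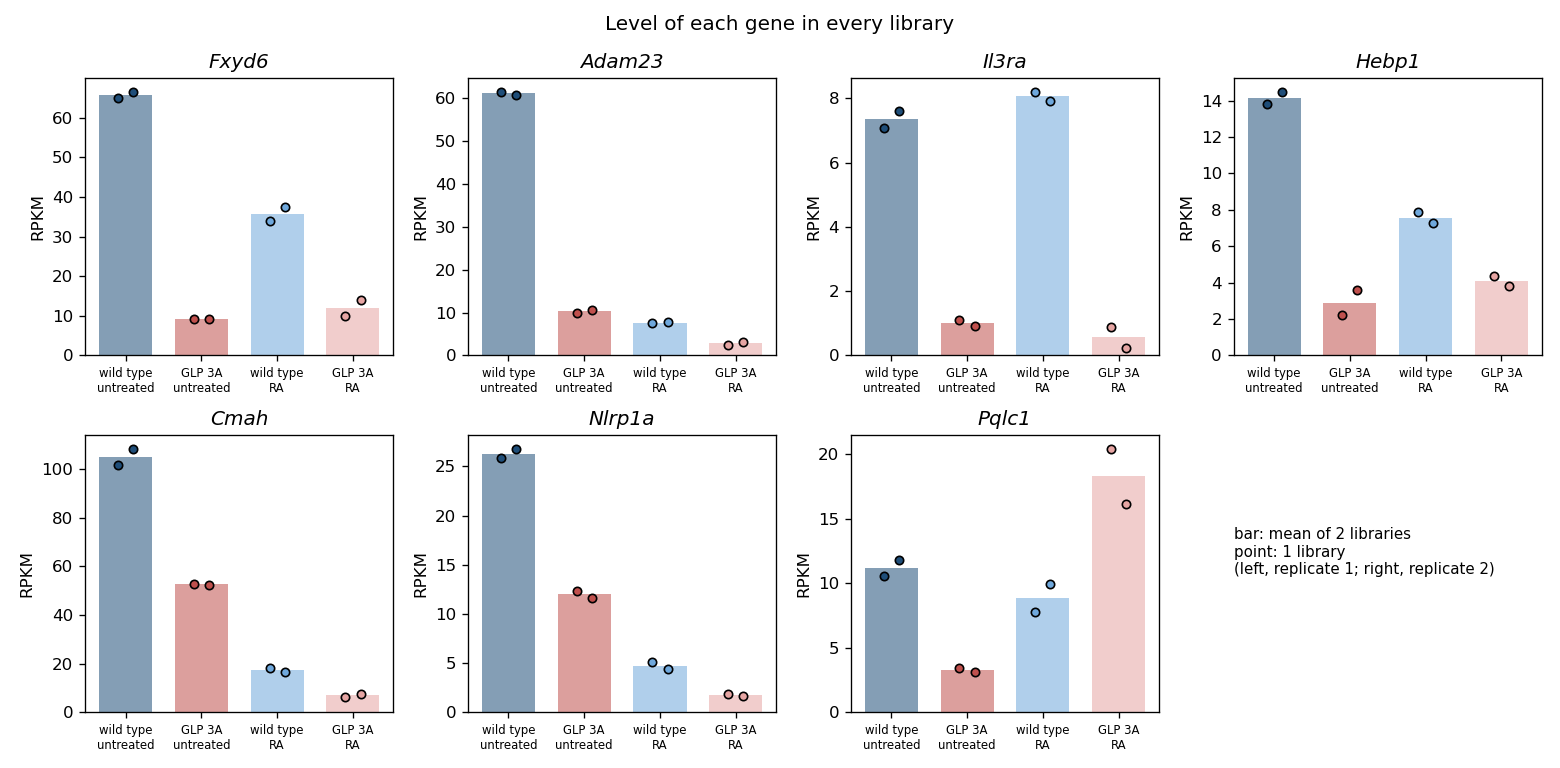
Level (RPKM, linear axis from 0) of each of the 7 genes in the 4 groups, with bars for the mean of 2 libraries and points for single libraries. The wild-type bars are the taller ones without RA in every panel, and the Pqlc1 panel alone has its tallest bar in GLP 3A with RA.

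Fxyd6 encodes a small FXYD protein that binds and modulates the sodium pump, which drives sodium out of and potassium into the cell. The gene (chromosome 9, 45178267 to 45204242) had 64.9 and 66.6 RPKM in the untreated wild-type libraries, and untreated GLP 3A had 9.14 and 9.26. The mutant level was 14% of the wild-type level, which on the log2 scale was -2.71 ± 0.14 (SE, n = 2 per group). With RA, wild type had 33.9 and 37.6 RPKM and GLP 3A 10.1 and 13.9, a difference of -1.52 ± 0.14. The 4 mutant libraries lay below the 4 wild-type libraries whatever the treatment.

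Adam23 encodes a membrane protein of the ADAM family without protease activity that binds secreted LGI proteins and integrins and is known mainly from neurons. The gene (chromosome 1, 63492477 to 63643089) had 61.5 and 60.8 RPKM in the untreated wild-type libraries, and untreated GLP 3A had 9.88 and 10.7 (-2.46 ± 0.10, SE, n = 2 per group). With RA, wild type had 7.50 and 7.73 and GLP 3A 2.48 and 3.14 (-1.18 ± 0.10). Untreated mutant cells thus lay just above RA-treated wild-type cells, and far below untreated ones.

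Il3ra encodes the alpha chain of the interleukin-3 receptor, which needs a beta chain (Csf2rb, or Csf2rb2 in mice) to signal in blood cells. The gene (chromosome 14, 15179008 to 15188004) had 7.09 and 7.60 RPKM in the untreated wild-type libraries, and untreated GLP 3A had 1.11 and 0.91 (-2.06 ± 0.20, SE, n = 2 per group). With RA, wild type had 8.21 and 7.91 and GLP 3A 0.892 and 0.227 (-2.57 ± 0.20). Its mean with RA was 6.94% of wild type, the smallest share left of any member in either state. The 2 mutant libraries with RA differed 9.2-fold and 34.8-fold from wild type by replicate number, so the size of this difference rests on low values.

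Pqlc1, an older symbol of Slc66a2, encodes a multipass membrane protein with PQ-loop repeats. The gene (chromosome 18, 80451983 to 80489463) had 10.6 and 11.8 RPKM in the untreated wild-type libraries, and untreated GLP 3A had 3.43 and 3.10 (-1.51 ± 0.15, SE, n = 2 per group). With RA the order was the other way, 7.76 and 9.93 for wild type against 20.4 and 16.1 for GLP 3A (0.97 ± 0.15). It was the single member of the 7 whose GLP 3A libraries lay above wild type with RA, and no pair of its 4 groups overlapped.

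Hebp1 encodes a heme-binding protein of the cytosol. The gene (chromosome 6, 135087536 to 135118233) had 13.8 and 14.5 RPKM in the untreated wild-type libraries, and untreated GLP 3A had 2.20 and 3.58 (-1.98 ± 0.17, SE, n = 2 per group). With RA, wild type had 7.88 and 7.26 and GLP 3A 4.36 and 3.81 (-0.75 ± 0.17). The mutant kept 20.4% of the wild-type mean without RA and 54% with RA.

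Cmah encodes the hydroxylase that turns the sialic acid Neu5Ac, in its CMP form, into Neu5Gc, a sugar at the end of many surface glycans in mice and one that humans cannot make. The gene (chromosome 13, 24419288 to 24569154) was the most abundant member in both untreated groups, with 101.4 and 108.3 RPKM for wild type against 52.7 and 52.4 for GLP 3A (-0.98 ± 0.10, SE, n = 2 per group). With RA, wild type had 18.4 and 16.4 and GLP 3A 6.34 and 7.58 (-1.21 ± 0.10). Wild type exceeded the mutant 2.0-fold without RA and 2.5-fold with RA.

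Nlrp1a encodes a sensor protein of the inflammasome, the complex that activates caspase-1 in innate immune cells. The gene (chromosome 11, 70904698 to 70958206) had 25.8 and 26.8 RPKM in the untreated wild-type libraries, and untreated GLP 3A had 12.4 and 11.6 (-1.07 ± 0.09, SE, n = 2 per group). With RA, wild type had 5.09 and 4.43 and GLP 3A 1.90 and 1.69 (-1.04 ± 0.09). Its paralogue Nlrp1b was listed at 0 in all 8 libraries, and Nlrp1c-ps at 0 in 7 of them. Reads of near-identical copies can be assigned to either, so the level of Nlrp1a is uncertain to that extent.

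**Figure D2:**
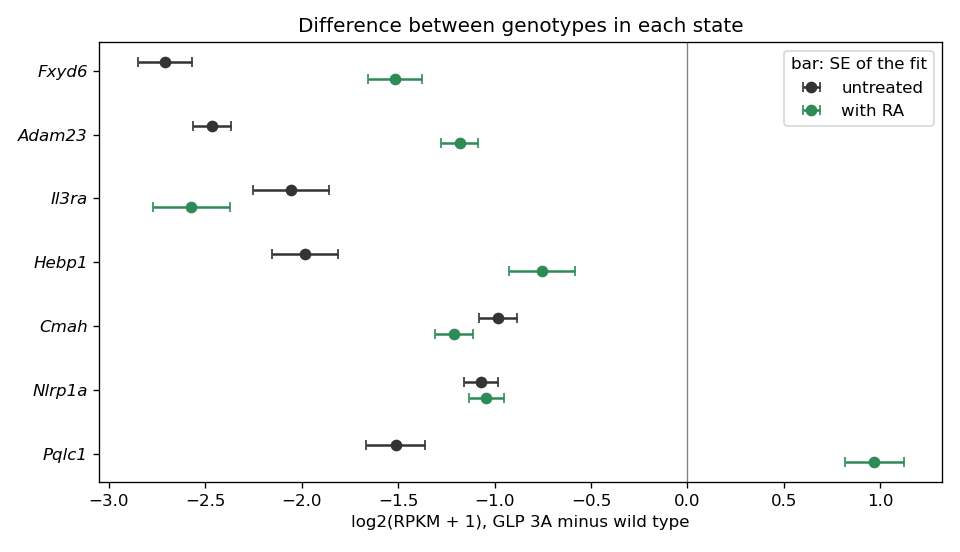
Difference between the genotypes, GLP 3A minus wild type on log2(RPKM + 1), for each gene without and with RA, with bars for the standard error of the fit. All 7 untreated points lie left of 0, and with RA the Pqlc1 point lies right of it at 0.97.

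Among members, the order of levels in untreated wild type was Cmah, Fxyd6, Adam23, Nlrp1a, Hebp1, Pqlc1 and Il3ra, with no overlap between neighbours in that order. In untreated GLP 3A it was Cmah, Nlrp1a, Adam23, Fxyd6, Pqlc1, Hebp1 and Il3ra, where the ranges of Pqlc1 and Hebp1 overlapped. In wild type with RA, Fxyd6 led and Nlrp1a came last, and the ranges of Pqlc1 and Il3ra, and of Adam23 and Hebp1, overlapped. In GLP 3A with RA, Pqlc1 led and Il3ra came last, with no overlap between neighbours. RPKM is per length, so these levels can be set beside each other.

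The response to RA within each genotype was tested, since the rule does not name that contrast. It shares the untreated libraries with the contrast that chose the members, and these lean towards high untreated levels in wild type and low ones in the mutant. The rule also used the RA libraries where a member was chosen as lower in both states. The members' p-values below are therefore not independent of the choice. In wild type 5 of the 7 members fell, 0 rose and 2 were not called, where 34.8% of all genes tested were called lower and 33.7% higher (limma, adjusted p under 0.05). Adam23 fell from a mean of 61.2 to 7.62 RPKM (-2.85 ± 0.10, adjusted p = 6.04e-06), Cmah from 104.9 to 17.4 (-2.53 ± 0.10, adjusted p = 8.66e-06) and Nlrp1a from 26.3 to 4.76 (-2.25 ± 0.09, adjusted p = 9.44e-06). These 3 fell by 2-fold or more, as 10.2% of all genes did. Fxyd6 (-0.86 ± 0.14, adjusted p = 0.00184) and Hebp1 (-0.82 ± 0.17, adjusted p = 0.00538) fell less. Il3ra (0.12 ± 0.20, adjusted p = 0.621) and Pqlc1 (-0.31 ± 0.15, adjusted p = 0.112) were not called. These are limma's tests with 2 libraries per group, and the 5 calls were kept under all 18 other settings tried.

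In GLP 3A 3 members fell, 1 rose and 3 were not called, where 38.1% of all genes were called lower and 32.3% higher with RA. Cmah (-2.75 ± 0.10, adjusted p = 7.97e-06), Nlrp1a (-2.22 ± 0.09, adjusted p = 1.06e-05) and Adam23 (-1.57 ± 0.10, adjusted p = 3.91e-05) fell, each by 2-fold or more, as 12.1% of all genes did, and all 3 had fallen in wild type too. Pqlc1 rose 5.6-fold from a mean of 3.27 to 18.3 RPKM (2.17 ± 0.15, limma adjusted p = 5.87e-05). Fxyd6 (0.33 ± 0.14, adjusted p = 0.0727), Hebp1 (0.41 ± 0.17, adjusted p = 0.0714) and Il3ra (-0.40 ± 0.20, adjusted p = 0.117) were not called, though each was under some other setting. Fxyd6 was called without GLP 3A RA replicate 1 (0.55, adjusted p = 0.00271), with median-of-ratios scaling (0.41, adjusted p = 0.0296) and with the replicate number as a block (0.33, adjusted p = 0.0409). Il3ra was called without the same library (-0.71, adjusted p = 0.00235) and with quantile normalization (-0.76, adjusted p = 0.00908), and Hebp1 without GLP 3A untreated replicate 2 (0.67, adjusted p = 0.00699). In 4 members the RA libraries lay on opposite sides of the untreated ones in the 2 genotypes, as they did for 2.99% of all genes tested. The difference of the responses between the genotypes was not tested, because the contrasts that chose the members enter it.

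**Figure D3:**
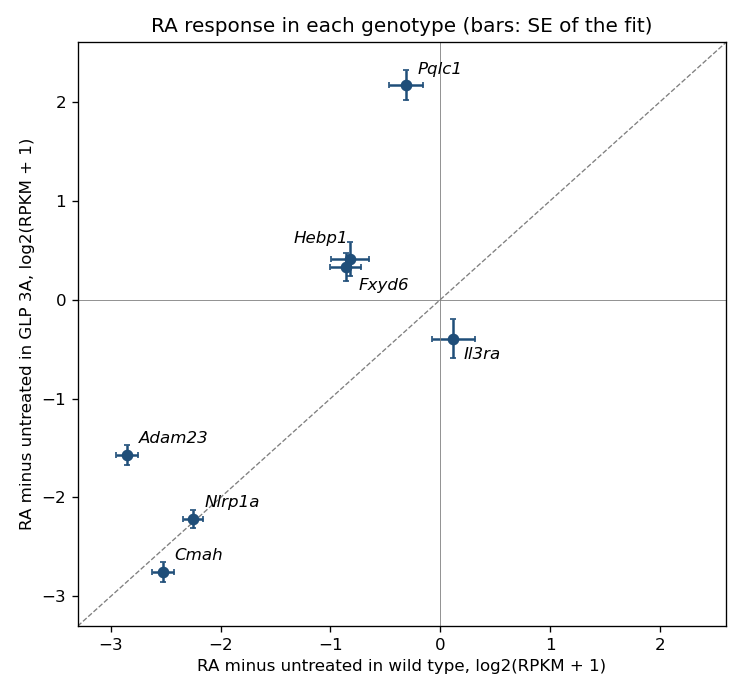
RA minus untreated on log2(RPKM + 1) in wild type (horizontal) and in GLP 3A (vertical) for the 7 genes, with bars for the standard error and a dashed line where both are equal. Adam23, Cmah and Nlrp1a lie in the lower left, and Pqlc1 stands at 2.17 on the vertical axis and -0.31 on the horizontal one.

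The cells were checked against marker lists. The 8 pluripotency markers summed to 5065 to 5207 RPKM in wild type without RA, 4502 to 4573 in untreated GLP 3A, 136.9 to 247.3 in wild type with RA and 173.7 to 378 in GLP 3A with RA. All 8 fell with RA in both genotypes (limma), beside the falls of Adam23, Cmah and Nlrp1a, and the part of this change of state in those falls was not tested. In GLP 3A against wild type with RA, 2 of the 8 were called higher, Nanog (2.25 ± 0.30, adjusted p = 0.0146) and Tdgf1 (1.80 ± 0.32, adjusted p = 0.0261), and 0 lower, while Sox2 stood at -0.61, not called. The Nanog call was lost without wild-type RA replicate 2 and the Tdgf1 call without any 1 untreated or wild-type RA library (up to adjusted p = 0.096). Pqlc1 stood higher in GLP 3A with RA too, but lower without RA, where Nanog (0.37) and Tdgf1 (0.44) were not called. Any part of Nanog and Tdgf1 in the level of Pqlc1 was not tested. Blood and macrophage markers, which could go with Il3ra and Nlrp1a, summed to 16.9 to 17.6 RPKM in wild type and 25.9 to 29.4 in GLP 3A without RA, the reverse of the members' order. With RA they summed to 9.34 to 13.2 in wild type and 16.8 to 22.3 in GLP 3A. Cd68 made up most of each sum (14.9 and 15.8 against 24.5 and 27.7 untreated), 6 of the 8 were below 1 RPKM in both untreated libraries of each genotype, and the defining marker Ptprc was at 0 in both untreated GLP 3A libraries and at 0.00467 and 0.019 in wild type. The 7 neural markers listed, of 8, summed to 219.4 to 220.2 RPKM in wild type and 191.2 to 192.1 in GLP 3A without RA, and to 50.8 to 69.3 and 65.2 to 72.7 with RA. Stmn2 carried the lower untreated sum (189.1 and 191.5 against 139.8 and 144.7, not called), and the 2 called markers were higher in untreated GLP 3A, Tubb3 (0.79 ± 0.08, adjusted p = 0.00327, kept with any 1 library left out) and Nes (0.96 ± 0.15, adjusted p = 0.0145, lost without any 1 untreated library, up to 0.11). None of the 7 was at 0 in both libraries of a group, and neural genes' part in the levels of Fxyd6 and Adam23 was not tested. Fibroblast markers, which feeder cells would bring, summed to 4.35 to 4.88 and 4.66 to 6.03 RPKM in wild type and GLP 3A without RA, with Lum at 0, and to 95.2 to 101.4 and 79.3 to 120.1 with RA. Endoderm markers stayed at 1.87 to 1.99 and 1.90 to 1.94 without RA, with Afp at 0 in wild type, and reached 53.3 to 143.7 and 35.4 to 60.9 with RA. With RA, Sox17, on chromosome 1, was called lower in GLP 3A (-1.27 ± 0.27, limma adjusted p = 0.0373). The fibroblast marker Col1a1 was called higher with RA (0.53 ± 0.11, adjusted p = 0.0358). Cd68 was called higher without RA (0.73 ± 0.14, adjusted p = 0.0252) and with RA (1.04 ± 0.14, adjusted p = 0.0142). None of these calls was kept in all 8 fits with 1 library left out.

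Ehmt1 itself was lower in GLP 3A without RA (-0.32 ± 0.07, limma adjusted p = 0.0334) and with RA (-0.79 ± 0.07, adjusted p = 0.0041), and Ehmt2 and Wiz, a zinc finger partner of both enzymes, were called in neither state. The untreated call of Ehmt1 was lost when any 1 of the 4 untreated libraries was left out (up to adjusted p = 0.195). RPKM totals were 748556 to 822877 in the untreated libraries and 509341 to 554854 with RA.

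Genes that work with each member were taken from lists, and all calls on them are limma's at an adjusted p under 0.05, with 4.15% of all genes called lower and 7.52% higher without RA and 5.31% and 5.3% with RA. Among sodium pump and FXYD genes, Fxyd2, another FXYD regulator, had 1.15 and 1.65 RPKM in wild type without RA and 0.17 and 0.116 in the mutant (-1.06 ± 0.16, adjusted p = 0.0126). With RA it was not called (-0.125). The untreated call was lost when any 1 untreated library was left out (up to adjusted p = 0.101). The widespread beta subunit Atp1b3 (0.36 without and -0.22 with RA) was not called. The median of all genes tested was 0.04 without RA and -0.01 with RA, for comparison with the lists below.

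Of 11 ADAM family and ADAM23 partner genes tested, 4 rose and 0 fell in untreated GLP 3A (median 0.21) and 0 were called with RA by limma (median 0.06). The 4 were Adam19 (1.15 ± 0.09, adjusted p = 0.00169), Adam10 (0.60 ± 0.09, adjusted p = 0.0112), Adam17 (0.58 ± 0.08, adjusted p = 0.00916) and Adam9 (0.56 ± 0.08, adjusted p = 0.0123), all active proteases that shed surface proteins. The call of Adam19 was kept in all 8 fits with 1 library left out. Those of Adam9 and Adam10 were lost without any 1 of the untreated libraries, and that of Adam17 without any of them but wild-type replicate 1 (up to adjusted p = 0.104 in the 3). The abundant list members Adam15 (-0.05) and the integrin subunit Itgav (0.13) were not called. Adam22 and Adam11, the closest non-protease relatives of Adam23, did not exceed 1.14 RPKM without RA and were not called. Of the LGI ligands, Lgi2 alone was tested, and Lgi1, Lgi3 and Lgi4 were under 1 RPKM in every library.

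The partners of Il3ra were listed at very low values. Csf2rb was at 0.0475 RPKM or less and Csf2rb2 at 0.0607 or less in every library, and Il3, the ligand, at 0.146 or less. Of 8 genes of the receptor family and its signalling tested, 1 rose and 0 fell in untreated GLP 3A (median -0.08) and 0 were called with RA by limma (median 0.03). Csf2ra, the alpha chain of the GM-CSF receptor, rose from 7.82 and 8.53 to 11.4 and 11.3 RPKM (0.43 ± 0.09, adjusted p = 0.036), a call lost when any 1 untreated library was left out (up to adjusted p = 0.201). Bcl2l1 (-0.01) and Pim1 (-0.38), both known targets of the pathway, were not called.

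Of 16 genes of heme synthesis and handling tested, 2 rose and 0 fell in untreated GLP 3A (median -0.07), and 0 rose and 3 fell with RA (median 0.03). Hmox1, which degrades heme, rose without RA (0.53 ± 0.12, adjusted p = 0.0431), as did Fech, which inserts the iron (0.42 ± 0.10, adjusted p = 0.0445). With RA the synthesis enzymes Alad (-0.48 ± 0.11, adjusted p = 0.0419) and Ppox (-0.43 ± 0.10, adjusted p = 0.0491) and the transporter Abcb6 (-0.38 ± 0.08, adjusted p = 0.0348) fell. Ppox and Abcb6 lie on chromosome 1. None of these 5 calls was kept in all 8 fits with 1 library left out (up to adjusted p = 0.225): Hmox1 was lost without any 1 untreated library, Fech also without either wild-type RA library, Ppox without any library but GLP 3A RA replicate 2, and Alad and Abcb6 without any 1 of the 8. The abundant synthesis enzyme Urod (-0.19 without and -0.14 with RA) was not called. Hebp2, the paralogue of Hebp1, had 1.66 and 1.69 RPKM in wild type without RA and 1.35 and 1.52 in the mutant (-0.14) and was not called.

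Of 17 genes of sialic acid metabolism tested, 0 were called by limma in untreated GLP 3A (median 0.00), and 0 rose and 2 fell with RA (median -0.07). The 2 were sialyltransferases, St3gal2 (-0.60 ± 0.12, adjusted p = 0.0307) and St6gal1 (-0.40 ± 0.09, adjusted p = 0.0392). The call of St3gal2 was lost without any library but GLP 3A RA replicate 2, and that of St6gal1 without any 1 of the 8 (up to adjusted p = 0.134). Npl, on chromosome 1, had 9.58 and 9.43 RPKM in wild type and 3.63 and 3.67 in the mutant without RA. It stood at -1.175 ± 0.363 without RA (limma adjusted p = 0.09) and -1.423 ± 0.363 with RA (adjusted p = 0.0582), called in neither state. Nans and Cmas, which make Neu5Ac and activate it upstream of Cmah, stood at 34.6 to 57.3 RPKM in the untreated libraries and were not called. The lower level of Cmah thus went with no call on the steps before it.

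Of 7 inflammasome genes tested, 0 were called by limma without RA (median -0.04), and 1 rose and 0 fell with RA (median 0.01). Aim2, a sensor of cytosolic DNA, stood at 2.96 and 2.98 RPKM in wild type and 4.50 and 5.94 in GLP 3A with RA (0.64 ± 0.12, adjusted p = 0.0294), and the call was lost when any 1 untreated or wild-type RA library was left out (up to adjusted p = 0.0971). Casp1 was listed at 0 in all 8 libraries. The NLRP1 inhibitors Dpp8 and Dpp9 were not called in either state. Of 6 other PQ-loop proteins tested, 2 rose and 0 fell without RA (median 0.26) and 1 rose and 0 fell with RA (median 0.33). Mpdu1, needed for the use of dolichol-linked sugars, rose in both states (0.64 ± 0.10, adjusted p = 0.0143, and 0.60 ± 0.10, adjusted p = 0.0238), and Slc50a1, a sugar transporter, rose without RA (0.70 ± 0.11, adjusted p = 0.0141). Those calls were lost without any 1 untreated library, and the RA call of Mpdu1 also without either wild-type RA library (up to adjusted p = 0.111). Pqlc3 was not called (0.06 and 0.27). Mpdu1 and the cystine exporter Ctns (0.23 and 0.30, not called) lie on chromosome 11, where genes stood higher in GLP 3A.

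The members lie on 7 different chromosomes. Adam23 is the one on chromosome 1, where 20.8% of 710 tested genes were called lower in untreated GLP 3A and 29.9% with RA, against 4.15% and 5.31% of all genes. Shares called with RA depend on the fit: with only the 4 RA libraries, 11 of all genes were called lower, against 701 in the full fit. The chromosome's median was -0.24 without and -0.31 with RA, and Adam23 differed from it by -2.225 without RA and by -0.871 with RA. Lower untreated values on chromosome 1 belonged to 3 genes, the short RNA genes Snord70, Snord82 and Snord89. In bins of 20 Mb counted from the start of Adam23, the untreated median ran from -0.29 to -0.18 over the whole chromosome, and the bins on either side of Adam23 (-0.24 and -0.25) lay inside that range. With RA those 2 bins had the lowest medians of the chromosome (-0.353 and -0.365) and the highest shares called lower (34.6% and 34.9%), where the other bins ran from -0.347 to -0.233 and from 23.8% to 32.5%. Nlrp1a lies on chromosome 11, whose median was 0.24 in both states and where 2.06% of 1114 tested genes were called lower without RA and 1.17% with RA. Nlrp1a differed from that median by -1.31 without RA and by -1.28 with RA. The chromosomes of the 5 other members had untreated medians of 0.00 to 0.03, and medians of -0.06 to 0.00 with RA.

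**Figure D4:**
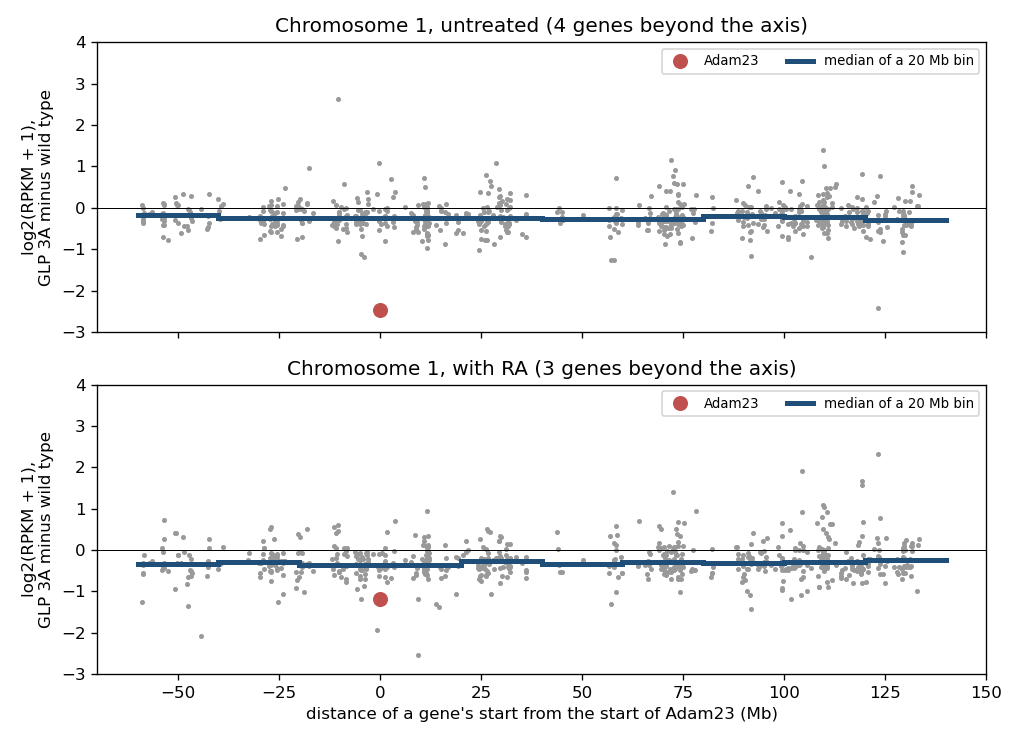
Difference between the genotypes along chromosome 1 for tested genes (grey), with Adam23 in red and medians of 20 Mb bins in blue, by distance from the start of Adam23 (Mb). Genes beyond the drawn range, such as Snord70 (-11.3 without RA), are not shown. The bin medians lie between -0.29 and -0.18 without RA, and the Adam23 point stands at -2.46.

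Of 66 tested genes within 500 kb of a member, 6 were called lower in untreated GLP 3A (9.09%) and 6 higher, against 4.15% and 7.52% of all genes. With RA 4 were lower (6.06%), all near Adam23 (Eef1b2, Fastkd2, Ino80d and Zdbf2). Another 3 were higher, all near Nlrp1a (Mink1, Rnf167 and Slc25a11), and the shares of all genes were 5.31% and 5.3%. Of the 58 not on chromosome 1, 4 were lower without RA (6.9%) and 0 with RA. On chromosome 11 as a whole, 19.7% of tested genes were called higher without RA and 18% with RA. The part of whole-chromosome differences in these counts was not tested. The 6 lower ones without RA were Fxyd2 and Ube4a near Fxyd6, Fastkd2 and Ndufs1 near Adam23, 8430419L09Rik near Hebp1 and Pard6g near Pqlc1. They are named because so few were called. The largest of these differences was that of Fxyd2, which lies 3.55 kb from Fxyd6, next to it at higher coordinates. The gene next to Hebp1 at higher coordinates, 8430419L09Rik, was at -0.55 ± 0.10 (adjusted p = 0.0211), and Gprc5a on the other side at 0.54, not called. Beside Adam23, Fastkd2, a mitochondrial RNA-binding protein, was lower in both states (-0.39 ± 0.08, adjusted p = 0.0273, and -0.43 ± 0.08, adjusted p = 0.0263), and the imprinted gene Zdbf2 with RA (-0.62 ± 0.09, adjusted p = 0.0152). The nearest tested genes of Il3ra (Psmd6 and Slc4a7), Cmah (Lrrc16a and Gmnn), Nlrp1a (6330403K07Rik and Wscd1) and Pqlc1 (Txnl4a and Ctdp1), and Scn2b on the other side of Fxyd6, were called in neither state. Each of the 6 untreated calls was lost without any 1 untreated library, and that of Pard6g also without either wild-type RA library (up to adjusted p = 0.206). With RA, Eef1b2, Fastkd2 and Ino80d were lost without any library but GLP 3A RA replicate 2, and Zdbf2 without 4 of the 8: untreated wild-type replicate 1, both untreated GLP 3A libraries and wild-type RA replicate 2 (up to adjusted p = 0.104 over the 4 genes).

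Likeness of pattern was described by Pearson's r of log2(RPKM + 1) over the 8 libraries, among 4205 genes that varied (SD of at least 0.5). Libraries of a group are alike, so r mostly compares 4 group levels, and no p is given. The members were chosen on genotype contrasts in these same libraries, which can raise r between members. No shared regulation is read from these values. Fxyd6 was most like Dixdc1 (r = 0.988), which without RA had 3.39 and 3.38 RPKM in wild type and 0.95 and 0.94 in the mutant, and Hemk1 (0.984), both also on chromosome 9. Hebp1 was most like the sorting receptor gene Sorl1 (0.97) and again Hemk1 (0.95), and Hebp1 and Fxyd6 stood at r = 0.96 to each other. Il3ra was most like Cflar (0.97), an inhibitor of caspase-8, and Lad1 (0.97), both on chromosome 1. Cflar had 3.67 and 3.70 RPKM in wild type against 1.11 and 1.21 in GLP 3A without RA, and 4.19 and 4.51 against 1.62 and 1.13 with RA. Adam23 was most like Lyplal1 (0.987) and Phf20 (0.985), Cmah like Fastkd2 and the methyltransferase gene Smyd3 (0.997 each), and Nlrp1a like Smyd3 (0.997) and Nsun5 (0.995).

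Cmah and Nlrp1a stood at r = 0.996 to each other, and 743 and 618 genes had r above 0.9 with them, a count that a fall with RA alone can raise. Fxyd6 and Il3ra had 9 such genes each, Hebp1 5 and Pqlc1 3. Pqlc1 was most like Plekhb1 and Arhgdib (0.92 each). Arhgdib had 5.28 and 5.67 RPKM in wild type against 1.81 and 1.48 in GLP 3A without RA, and 6.94 and 6.25 against 8.56 and 6.70 with RA. Its mutant libraries were the low ones without RA, as with Pqlc1. Of the 12 genes named for likeness, 5 lie on chromosome 1, which holds 6.3% of the 4205. The members were chosen as lower in GLP 3A, so genes like them tend to be lower too. On chromosome 1, 20.8% of tested genes were called lower without RA and 29.9% with RA (limma). Nothing is read from this count.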

How the data were processed

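For each of the 8 RNA libraries the authors deposited a table that holds RPKM values by gene symbol with mm9 loci, per the file headers. Bowtie 0.12.7, SAMtools, TopHat and Cufflinks appear in the submitters' processing notes; the sources used here give no annotation and no strand setting. Symbols missing from any file (12) were left out. The test was limma 3.58.1 (R 4.3.3), two-sided, on log2(RPKM + 1), with 4 group means over all 8 libraries and an intensity trend. It covered the 13198 genes at 1 RPKM or more in at least 2 libraries, with Benjamini-Hochberg adjustment over all of them and calls at an adjusted p under 0.05, and was tested on simulated data. Members, gene lists and the rule for named genes were chosen with earlier results of these data known. Named are the members, up to 4 called and 2 abundant uncalled genes per list, the nearest tested gene on each side, and the 2 genes most alike per member. The fifth called heme gene, the called neighbours and the list genes near 0 were added after their values were seen. So were Adam11, Adam22, Lgi2, Hebp2, Npl and Nlrp1a's paralogues. Some list genes, and the counts of the sodium pump list, are not reported here. Promoters came from RefSeq's GRCm38.p6 table. Read depth is unknown: ratios of values at or under 0.15 RPKM matched ratios of whole numbers up to 4 (within 0.5%) for 5.78% to 9.44% of genes, too few to recover reads. At other assumed depths the median share was 2.11% to 2.72%. In every group, replicate 2 had more genes at 0 RPKM than replicate 1. Alternatives were other pseudocounts (0.1, 0.5), filters (none, 5 RPKM), scalings (median of ratios, quantile) and priors, a fit of 4 libraries alone, a block by replicate number, and leaving out each library in turn.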

Additional observations from a re-analysis of the deposited data

Results flagged for a closer look

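The RA response of 4 members went opposite ways in the genotypes, with every RA library on one side of both untreated libraries of its genotype, as was so for 2.99% of all genes tested. Pqlc1 stood at -0.31 in wild type and 2.17 in GLP 3A, Fxyd6 at -0.86 and 0.33, Hebp1 at -0.82 and 0.41, and Il3ra at 0.12 and -0.40 (log2 differences, RA minus untreated). Of these 8 values the Fxyd6 and Hebp1 decreases in wild type and the Pqlc1 increase in GLP 3A were called by limma. For Il3ra neither response was called, and its wild-type value turned to -0.0202 with quantile normalization, so the opposite direction did not hold there. Seen the other way, Pqlc1 stood at -1.51 in GLP 3A against wild type without RA and at 0.97 with RA. None of these differences between responses was tested, since the contrasts that chose the members enter them.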

How the results depend on the processing

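Each member's genotype difference kept its sign under all 18 other settings. This was largely fixed beforehand and gives no support. The contrasts chose the members, and the libraries of the genotypes did not overlap for any member in either state. Among member and named gene values, 580 of 658 under other settings kept their direction and side of the threshold, or moved by less than the replicate SD. This count includes the members' genotype differences, so it does not measure how well the calls on named genes held. With 1 library left out, most genotype calls on named genes were lost in at least 1 fit. Those of Adam19 and Tubb3 without RA and of Ehmt1 with RA were the only ones kept in every such fit. The one reversal was Il3ra with RA in wild type, at -0.0202 with quantile normalization, not called in either case. With only the 4 libraries compared, 1263 genes were called lower without RA (548 in the full fit) and 11 with RA (701), and with no filter 391 were with RA. With 1 library left out these counts ran from 65 to 842 and from 152 to 1249, genes called with RA from 7440 to 9489 in wild type and from 7767 to 9364 in GLP 3A, and members called in those responses from 5 to 5 and from 4 to 6. The cause was not tested. The full fit gives each gene 1 SE for both states, so it does not show a spread that differs between them. The fits of 4 libraries take the spread of 1 state alone. Where a group kept 1 library, it was assumed to vary like the others.

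Libraries of a number share no stated source. Their deviations from group means correlated at 0.169 to 0.355 across genes. With the replicate number as a block, 601 genes were called lower without RA and 815 with RA, 9308 were called with RA in wild type and 9601 in GLP 3A, and 5 members were called in each response. At unknown depth, values under 1 RPKM, such as Il3ra in GLP 3A, are the least certain.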
